A study of Mus musculus with 4 samples.

Results

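Nuclear long non-coding RNAs were compared between RNA immunoprecipitates of mouse neural precursor cultures. The group was chosen by name, from what is known of the transcripts, but with earlier results of these data known. It holds Malat1, Neat1, Miat, Kcnq1ot1, Snhg14, Tug1, Pvt1, Sox2ot and Rmst. Of these 9 genes, 8 had a row among the 21738 genes listed, and Rmst was not analysed here. The cells were neurospheres, which are free-floating balls of neural precursors, started from the ventricular-subventricular zone (V-SVZ) of CD1 wild-type pups aged 7 or 8 postnatal days and cultured for 7 days. RNA was pulled down with anti-4E-T in 2 libraries and with anti-IgG, the control antibody, in the other 2. The titles number the experiments 1 and 2 for each antibody, but separate animals or cultures are not stated. The p-values therefore measure only how far these libraries spread, and that spread may be technical. No input RNA was analysed here, so every difference is between the antibodies and is relative to the rest of each library.

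4E-T is a partner of eIF4E, the protein that holds the mRNA cap, and represses translation in cytoplasmic granules called processing bodies (P-bodies). Long non-coding RNAs (lncRNAs) are transcripts with no long reading frame, and many of them stay in the nucleus. Malat1 gathers in nuclear speckles, which hold splicing factors, and Neat1 is the scaffold of paraspeckles. Kcnq1ot1 and the antisense part of Snhg14 are made from the paternal chromosome and silence imprinted neighbours in cis. Tug1 and Pvt1 are found in the cytoplasm as well as in the nucleus, so the nuclear label does not apply to all molecules of each gene.

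All 8 lncRNAs with a row were lower in both 4E-T libraries than in both IgG libraries. Among all listed genes, 35.0% were separated in this way and 34.6% in the opposite direction. Mean levels were between 1.52-fold and 3.96-fold higher with IgG. Of the 6 that were abundant enough to test, 6 were called lower and 0 higher with 4E-T. Among all 12585 tested genes, 15.2% were called lower and 34.3% higher. The call was a limma adjusted p under 0.05 on log2(FPKM + 1), where FPKM is reads per kilobase of exon after the authors' scaling for library size, and genes needed an FPKM of at least 1 in at least 2 libraries. The 6 tested lncRNAs had a median log2 difference (4E-T minus IgG) of -0.66, against 0.16 over all tested genes. Neat1 passed the filter only through its IgG libraries, so its presence among the tested genes already favoured that direction. Snhg14 reached an FPKM of 1 in 4E-T library 2 but not in 4E-T library 1, so it too needed IgG to pass. With an FPKM of at least 1 required in all 4 libraries, 4 of the lncRNAs were tested and 4 were called lower.

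The RefSeq promoter table (GRCm38.p6, the build the submitters name as mm10) had an entry for 5 of the 9 genes. The sequences below show where RefSeq places the start of each of these RNAs. The gene positions given here are also from RefSeq, while the rows carry Ensembl identifiers and exon lengths recovered from the deposited values. These gene models can differ. The Kcnq1ot1 row has an exon length of 84432 bp, but its RefSeq span is 83437 bp. Each sequence runs 5′ to 3′ on the minus strand, with 50 bases before the annotated start in lower case and the first 50 transcribed bases in capitals.
Malat1: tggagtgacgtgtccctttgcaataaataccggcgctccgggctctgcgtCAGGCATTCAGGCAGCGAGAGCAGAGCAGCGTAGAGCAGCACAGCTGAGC
Tug1: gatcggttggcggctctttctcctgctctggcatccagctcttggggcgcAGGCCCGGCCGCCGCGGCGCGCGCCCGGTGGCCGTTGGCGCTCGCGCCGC
Snhg14: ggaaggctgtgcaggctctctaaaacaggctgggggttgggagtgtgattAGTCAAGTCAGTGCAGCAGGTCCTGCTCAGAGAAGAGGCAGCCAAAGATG
Miat: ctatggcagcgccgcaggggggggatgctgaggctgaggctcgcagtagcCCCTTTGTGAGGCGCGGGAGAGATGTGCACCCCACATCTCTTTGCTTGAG
Kcnq1ot1: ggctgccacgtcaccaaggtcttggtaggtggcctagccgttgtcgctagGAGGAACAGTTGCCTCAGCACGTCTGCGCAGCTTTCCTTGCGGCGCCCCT

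These windows lie at chr19:5802623-5802722 (Malat1), chr11:3648765-3648864 (Tug1), chr7:60450128-60450227 (Snhg14), chr5:112228899-112228998 (Miat) and chr7:143296498-143296597 (Kcnq1ot1). The first 50 bases of Tug1 were 90% G and C. Those of Kcnq1ot1, Malat1, Miat and Snhg14 were 64%, 62%, 58% and 54%, beside a median of 56% over 32851 entries. Tug1 thus stood apart from the other 4 in base composition at its start.

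The libraries held between 72769612 and 85828188 reads over the listed genes, recovered from the deposited values. All 16 neural precursor markers passed the filter, with 9 called higher and 0 lower with 4E-T, beside 34.3% and 15.2% of all tested genes. With median ratio scaling, and also with library total scaling, 7 of the markers were called higher and 1 lower. Their summed FPKM was 5612 and 4060 in the 4E-T libraries against 3941 and 3996 in the IgG libraries. Most of each sum was Fabp7, which was not called, with 3475 and 2386 FPKM with 4E-T and 2591 and 2758 FPKM with IgG. Of 14 microglia and blood markers 5 were listed and 0 tested, with sums between 0.464 and 0.952 FPKM over the 4 libraries. Of the neuron markers 9 of 16 were tested (2 higher, 3 lower), of ependymal markers 5 of 12 (1 higher, 0 lower), and of endothelial, mural and fibroblast markers 2 of 14 (1 higher, 0 lower). Neuron markers summed to 85.1 and 85.0 FPKM with 4E-T and 93.7 and 82.6 FPKM with IgG. The ependymal sums were 18.6 and 17.3 FPKM with 4E-T and 15.0 and 17.7 FPKM with IgG, and the endothelial, mural and fibroblast sums 30.9 and 24.6 FPKM with 4E-T and 23.3 and 20.3 FPKM with IgG. Without IgG library 1 or IgG library 2 the precursor markers called higher were 5 and 6. The part of these cell types in the lncRNA differences was not tested. In immunoprecipitates of whole cultures, the cells a transcript came from and the share of it recovered by each antibody cannot be told apart.

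Genes of the smell and taste receptors, which have no known use in these cells, moved with the antibody too. The 193 listed olfactory, vomeronasal and taste receptor genes had 647 and 857 reads in the 4E-T libraries, against 2931 and 3826 in the IgG libraries. Over their summed length this was an FPKM of 0.00947 and 0.0133 with 4E-T and of 0.0350 and 0.0473 with IgG. All 8 lncRNAs were above this level in every library, and Kcnq1ot1 was nearest to it. All but Neat1 stood further above it in both 4E-T libraries than in both IgG libraries. Malat1 was at 3974 and 3533 times the level with 4E-T and at 1945 and 1500 times with IgG. For Neat1 the multiples were 24.3 and 27.4 with 4E-T and 30.9 and 26.9 with IgG. Of the 193 receptor genes, 168 were lower in both 4E-T libraries than in both IgG libraries, beside 35.0% of all listed genes. The part of such background reads in the lncRNA differences was not tested. With the receptor level subtracted from every gene, an alternative chosen after seeing the data, the 6 tested lncRNAs were called lower, with a median of -0.65. The level subtracted was small beside the pseudocount of 1 in every library. This alternative could therefore hardly change a call, and it decides nothing about background reads.

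**Figure D1:**
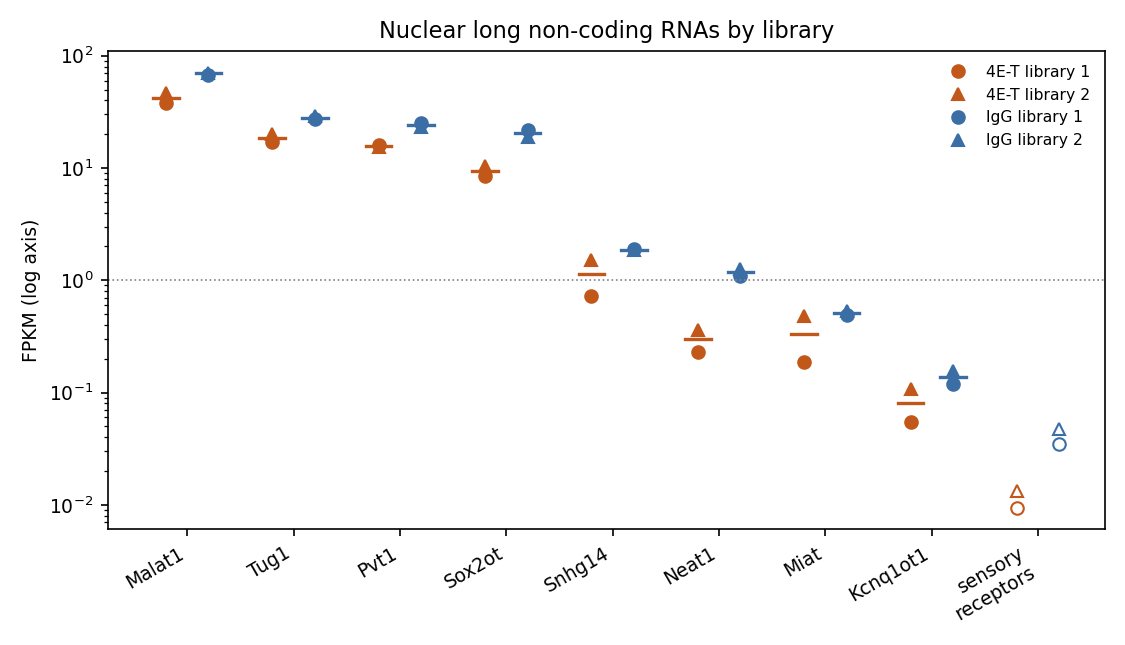
FPKM (log axis) of the 8 nuclear lncRNAs in each library, with 4E-T left of IgG, circles for library 1, triangles for library 2 and a bar for the mean of each antibody. The open symbols are the pooled level of 193 sensory receptor genes and the dotted line is the FPKM of 1 used as the filter. Every lncRNA was lower in both 4E-T libraries, and Malat1 was the most abundant.

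Among the RNAs of nuclear bodies, Malat1 was the most abundant lncRNA of the group. Malat1 (ENSMUSG00000092341.2; chromosome 19, 5795690 to 5802672, GRCm38.p6; exon length 6986 bp) had FPKM of 37.6 and 47.0 in the 4E-T libraries, against 68.0 and 70.9 in the IgG libraries. The groups did not overlap, which held in this direction for 25.2% of tested genes and in the other direction for 50.5%. Its level averaged 42.3 ± 6.62 FPKM with 4E-T and 69.5 ± 2.01 FPKM with IgG (SD, n = 2 each). The log2 difference was -0.71 ± 0.15 (SE), with a limma adjusted p of 0.000289. Of all tested genes, 4.85% had a more negative difference.

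Neat1, which lies next to Malat1, had the largest ratio between the antibodies within the group. Neat1 (ENSMUSG00000092274.2; chromosome 19, 5824708 to 5845480; exon length 20780 bp) had FPKM of 0.230 and 0.364 with 4E-T, against 1.08 and 1.27 with IgG. Its mean was 0.297 ± 0.0949 FPKM with 4E-T and 1.18 ± 0.134 FPKM with IgG (SD, n = 2 each), so that IgG was 3.96-fold higher. On the log2(FPKM + 1) scale, which understates changes of low genes, the difference was -0.75 ± 0.13 (SE; limma adjusted p = 2.83e-05). A pseudocount of 0.1 in place of 1 gave -1.70. The row spans the long isoform, so the short isoform, which shares its start, cannot be told apart from it and the level per length is that of the whole span. The 4 libraries held 357 and 533 reads of Neat1 with 4E-T and 2058 and 2336 with IgG.

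The ratio of the pair within a library does not depend on how libraries are scaled. Malat1 was 164 and 129 times the FPKM of Neat1 in the 4E-T libraries, and 62.9 and 55.8 times in the IgG libraries. The proportion of Neat1 beside Malat1 was thus smaller in both 4E-T libraries. Malat1 to Tug1, in contrast, was 2.22 and 2.33 with 4E-T and 2.48 and 2.46 with IgG, a much smaller spread.

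Miat, also called Gomafu, forms nuclear foci of its own in neural cells. Miat (ENSMUSG00000097767.8; chromosome 5, 112213228 to 112228948) had FPKM of 0.188 and 0.480 with 4E-T, against 0.488 and 0.530 with IgG. It was under the filter and was not tested. The groups did not overlap, as in 35.0% of listed genes in this direction, but 4E-T library 2 lay close to the IgG libraries and 4E-T library 1 far below. The reads were 129 and 310 with 4E-T and 410 and 430 with IgG, and counting error in the smallest of these was 8.80% of its value.

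The imprinted transcripts of chromosome 7 were the other low members. Snhg14, whose long form runs antisense through Ube3a, the gene lost in Angelman syndrome (ENSMUSG00000100826.6; chromosome 7, 59272737 to 60450177), had FPKM of 0.723 and 1.53 with 4E-T, against 1.89 and 1.85 with IgG. Its mean was 1.13 ± 0.571 FPKM with 4E-T and 1.87 ± 0.0279 FPKM with IgG (SD, n = 2 each). The difference of -0.46 ± 0.15 (SE) was called (limma adjusted p = 0.0192), but not without 4E-T library 1, where it was -0.18 (limma adjusted p = 0.361). The call was also lost without IgG library 1 (adjusted p = 0.158) and without IgG library 2 (adjusted p = 0.151).

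Kcnq1ot1, the antisense RNA of the Kcnq1 imprinting domain (ENSMUSG00000101609.1; chromosome 7, 143213111 to 143296547), had FPKM of 0.0545 and 0.108 with 4E-T, against 0.119 and 0.155 with IgG. It was not tested. Its exon length of 84432 bp gave it 344 and 640 reads with 4E-T and 922 and 1156 with IgG despite the low level per length. It stood at 5.76 and 8.09 times the receptor level with 4E-T and at 3.41 and 3.27 times with IgG. A fit by voom on the recovered reads, chosen after seeing the data, gave -0.83 ± 0.24 (SE; adjusted p = 0.0104) for Kcnq1ot1 and -0.77 ± 0.30 (adjusted p = 0.0544) for Miat.

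The remaining lncRNAs, Tug1, Pvt1 and Sox2ot, were all abundant. Tug1 (ENSMUSG00000056579.18; chromosome 11, 3639785 to 3648814) had FPKM of 16.9 and 20.1 with 4E-T, against 27.5 and 28.8 with IgG. It averaged 18.5 ± 2.29 FPKM with 4E-T and 28.1 ± 0.965 FPKM with IgG (SD, n = 2 each), and differed by -0.58 ± 0.14 (SE; limma adjusted p = 0.00117). Pvt1, downstream of Myc (ENSMUSG00000097039.8; chromosome 15, 62037986 to 62260215), had FPKM of 15.9 and 15.3 with 4E-T, against 25.2 and 23.3 with IgG. It was the only one of the 8 that was not lower in 4E-T library 1 than in 4E-T library 2. Its difference was -0.60 ± 0.14 (SE; limma adjusted p = 0.000719), with means of 15.6 ± 0.413 FPKM with 4E-T and 24.2 ± 1.40 FPKM with IgG (SD, n = 2 each).

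Sox2ot, the transcript that spans the Sox2 locus, had the most negative difference of the tested lncRNAs on the log2(FPKM + 1) scale. With a pseudocount of 0.1 Neat1 was lower still, at -1.70 against -1.11 for Sox2ot, and with voom at -2.02 against -1.12. Sox2ot (ENSMUSG00000105265.4; chromosome 3, 34560381 to 34677993) had FPKM of 8.57 and 10.3 with 4E-T, against 22.0 and 18.98 with IgG. It averaged 9.46 ± 1.26 FPKM with 4E-T and 20.5 ± 2.14 FPKM with IgG (SD, n = 2 each). Its difference was -1.04 ± 0.14 (SE; limma adjusted p = 1.18e-06). Of all tested genes, 1.72% had a more negative one. Relative to Tug1 within a library it was 0.507 and 0.513 with 4E-T and 0.802 and 0.659 with IgG.

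The order of mean levels was Malat1, Tug1, Pvt1, Sox2ot, Snhg14, Neat1, Miat and Kcnq1ot1. Tug1 and Pvt1 did not overlap within either antibody, with a ratio of Pvt1 to Tug1 between 0.762 and 0.942 over the 4 libraries. In the 4E-T libraries Neat1 and Miat did not differ beyond their spread, with 0.297 ± 0.0949 and 0.334 ± 0.206 FPKM (SD, n = 2 each). Malat1 had a higher mean FPKM than 89.4% of tested genes. SMART-Seq primes on poly(A), and Malat1 and the long form of Neat1 end in a processed structure and not in a usual tail. How priming bears on their levels was not tested, and the short form of Neat1 has a tail.

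The genes with the pattern most like that of Malat1 over the 4 libraries, by Euclidean distance of centred log2 values among 8379 candidates, were Kpna4 (distance 0.083), Cks2 (0.11) and Rsrc2 (0.11). All 3 were lower in both 4E-T libraries, as the measure required of a close match.

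In the authors' deposited table, made with DESeq2, all 8 lncRNAs also had a fold change under 1, from 0.252 for Neat1 to 0.658 for Tug1. That table gives 6 of the 8 an adjusted p under 0.05, beside 11.9% of its genes lower and 20.0% higher at that threshold. In the authors' deposited table Kcnq1ot1 was among the 6 (adjusted p = 0.0168), while Miat (adjusted p = 0.515) and Snhg14 (adjusted p = 0.292) were not. Snhg14 was therefore called by limma and not in the authors' deposited table.

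The direction held under each scaling, although scaling moved all genes. With median ratio scaling the median of all tested genes was -0.0025 in place of 0.16, and the calls over all genes were 2870 higher and 2969 lower, against 4318 higher and 1912 lower as deposited. Quantile normalisation gave 3157 higher and 2827 lower. Scaling by library totals, chosen after seeing the data, gave 2369 higher and 3355 lower and a median of -0.062. The 6 tested lncRNAs were called lower under all of these, with medians of -0.80, -0.78 and -0.85 in that order.

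**Figure D2:**
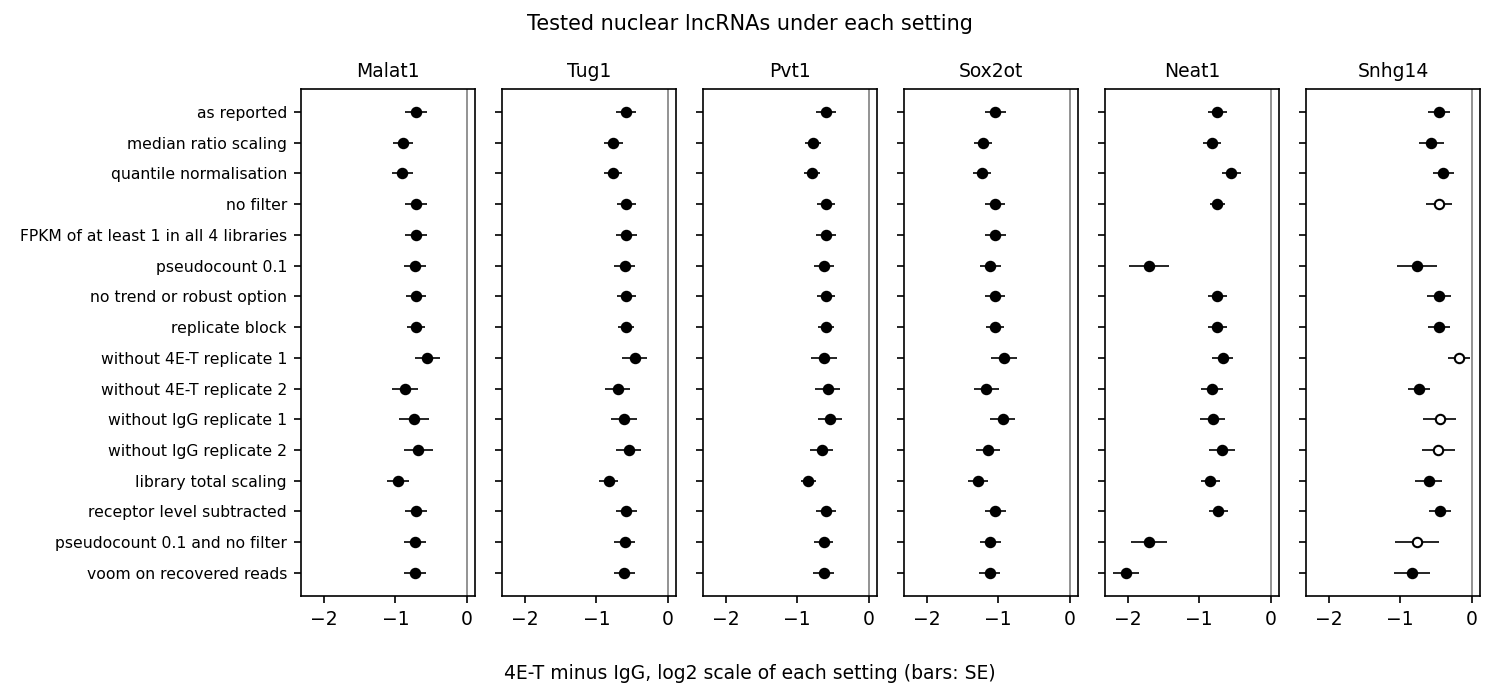
Log2 difference (4E-T minus IgG, x axis) of the 6 tested nuclear lncRNAs under each setting (y axis), with bars for the SE. Filled points had a limma adjusted p under 0.05 and open points did not; a missing point means that the gene was not tested there. All points lie below 0, and only Snhg14 has open points.

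Other genes that RefSeq classes as lncRNA, wherever in the cell they are found, were called lower more often than higher. Of 288 tested ones, members of the group left out, 42.4% were called lower and 3.82% higher, with a median log2 difference of -0.26. The lower calls among them, 122 in all, became 69 without IgG library 1 and 77 without IgG library 2. Where all 4 libraries needed an FPKM of at least 1, which removes genes tested only through their IgG level, 212 were tested, with 12 higher and 83 lower. Of 10889 protein-coding genes 12.8% were called lower and 37.7% higher, with a median of 0.20. With library total scaling these became 2283 higher and 2654 lower calls, with a median of -0.021. Of 1985 other genes of 5000 to 8000 bp, the class that holds Malat1, Tug1 and Snhg14, 11.3% were called lower and 45.2% higher (median 0.27). With library total scaling this class had 578 higher and 434 lower calls and a median of 0.060, and with median ratio scaling 684 higher and 377 lower and a median of 0.12. Leaving out IgG library 1 gave 746 higher and 103 lower, and leaving out IgG library 2 gave 573 and 165.

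**Figure D3:**
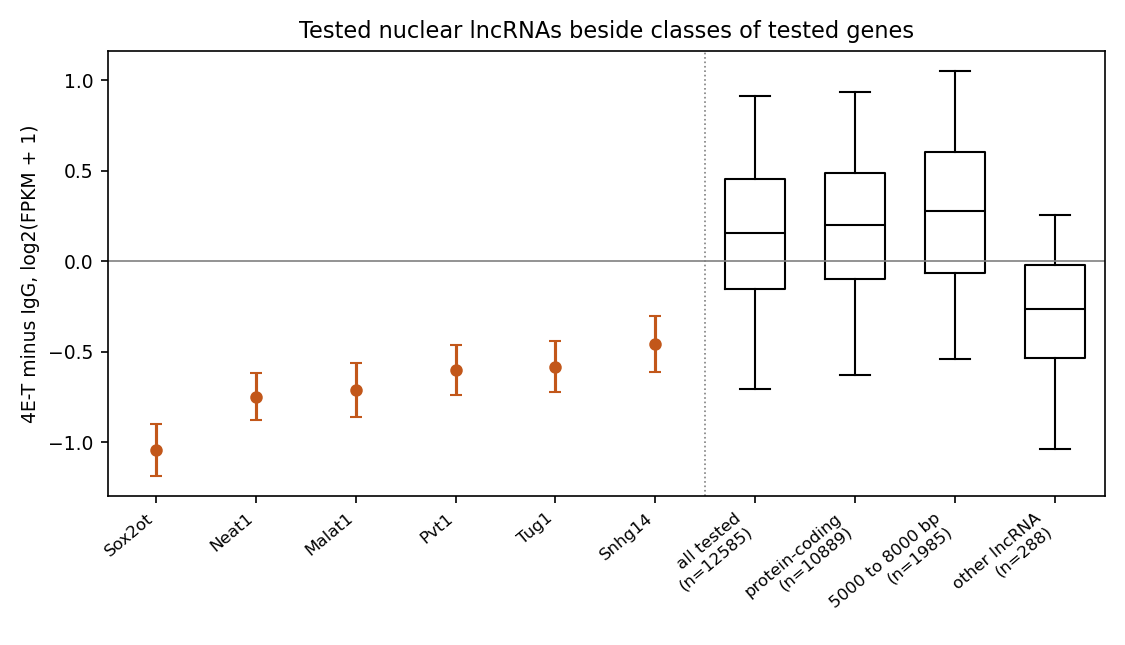
Log2 difference (4E-T minus IgG) of each tested nuclear lncRNA with its SE, left, and the spread over classes of tested genes, right, where boxes show the quartiles and the median and whiskers run to percentiles 5 and 95. The lncRNAs of the group lie between -1.04 and -0.46, and the other lncRNAs have a median of -0.26, against 0.20 for protein-coding genes.

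Of 42 other lncRNAs listed for nuclear or chromatin-linked roles, 16 were tested, with 0 called higher and 6 lower (median -0.28). Of the 16, Jpx, Dleu2, Airn and Mir22hg passed the filter only through their IgG libraries, and Jpx and Dleu2 are among the 6. With an FPKM of at least 1 required in all 4 libraries, 10 were tested, with 0 higher, 3 lower and a median of -0.10. Xist, which coats the inactive X chromosome, had FPKM of 0.596 and 1.11 with 4E-T, against 2.85 and 3.27 with IgG, a difference of -1.14 ± 0.14 (SE; limma adjusted p = 2.7e-07). Emx2os, antisense to the cortical patterning gene Emx2, differed by -0.61 ± 0.13 (SE). The predicted gene Gm26917 had the most negative difference of the list, -2.85 ± 0.25 (SE). It is among the 6 lower calls, and as a predicted gene its place in this list is uncertain. The lower calls were 9 with median ratio or library total scaling, 9 without 4E-T library 2 and 4 without either IgG library. Among those not called, Pantr1 and Mir9-3hg, abundant lncRNAs of neural precursors that were chosen after their values were seen, had differences of 0.13 and 0.043. With library total scaling these were -0.12 and -0.21, not called either (limma adjusted p = 0.385 and 0.175).

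Of 27 snoRNA host genes and lncRNAs known mainly from the cytoplasm, 19 were tested, with 0 higher, 12 lower and 7 not called, and a median of -0.58. Leaving out 4E-T library 1 gave 1 higher, 7 lower and a median of -0.23, and the lower calls were also 7 without IgG library 1 and without IgG library 2. Those not called include the snoRNA hosts Snhg1 (0.48), Snhg5 (0.13) and Snhg6 (0.0045), chosen after their values were seen. Oip5os1, also called Cyrano and listed as 1700020I14Rik, had FPKM of 12.6 and 14.3 with 4E-T, against 30.05 and 28.01 with IgG (log2 difference -1.05 ± 0.14, SE; limma adjusted p = 7.03e-07). Snhg9 (-1.06 ± 0.16) and the imprinted H19 (-0.97 ± 0.21) were lower too. Norad, a binder of Pumilio proteins listed as 2900097C17Rik and chosen after its values were seen, had 118 and 170 FPKM with 4E-T, against 261 and 188 FPKM with IgG (log2 difference -0.64 ± 0.20, SE; limma adjusted p = 0.0116). The call did not hold with quantile normalisation (limma adjusted p = 0.145), a replicate block (0.0799), no filter (0.0644) or a pseudocount of 0.1 and no filter (0.0540). It was also lost without 4E-T library 1 (difference -0.38) and without IgG library 1 (-0.40). Without 4E-T library 2 the difference was -0.90, and without IgG library 2 it was -0.88. Of 8 small structured RNAs 2 were tested, 0 higher and 1 lower, Rn7s1 (-0.95 ± 0.13), which has near-identical copies and is uncertain. Rn7s1 had 0.178 and 0.0473 FPKM with 4E-T, against 1.24 and 1.05 FPKM with IgG, so it was tested only through its IgG level, which favoured that direction.

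Of 30 genes listed for paraspeckle proteins 29 were tested, with 10 higher and 4 lower and a median of 0.084. These shares are close to the 34.3% higher and 15.2% lower of all tested genes. That median turned to -0.10 with median ratio scaling, -0.026 with quantile normalisation and -0.17 with library total scaling, where 8 were higher and 8 lower. Without IgG library 1, 7 were higher and 2 lower. Smarca4, a chromatin remodelling ATPase also reported in paraspeckles (1.77 ± 0.16, SE), and the intron-binding helicase gene Aqr (1.10 ± 0.18) were among the highest, and Srsf10 (-1.13 ± 0.15), Ss18l1 (-0.70 ± 0.14) and Hnrnph3 (-0.44 ± 0.14) the lowest. The core paraspeckle proteins Sfpq (0.62) and Pspc1 (0.57) were called higher and Nono (0.051, which turned to -0.21 with library total scaling) was not. These were chosen after their values were seen. Without IgG library 1 the limma adjusted p of Sfpq was 0.0628. The Pspc1 call was lost with library total scaling (0.0616), without 4E-T library 1 (0.0860) and without IgG library 2 (0.124). The Hnrnph3 call was lost without 4E-T library 2 (limma adjusted p = 0.0853), IgG library 1 (0.139) or IgG library 2 (0.0658).

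All 32 genes listed for nuclear speckles, where Malat1 resides, were tested, with 16 higher and 2 lower and a median of 0.29. Srrm1, a splicing coactivator, was higher by 1.36 ± 0.14 (SE), with the spliceosome genes Sf3b2 at 1.28 ± 0.17 and Prpf8 at 1.18 ± 0.15. The splicing factor genes Srsf6 (-0.50 ± 0.15) and Srsf1 (-0.50 ± 0.15) were lower, neither of them without IgG library 1 (limma adjusted p = 0.160 and 0.169). The counts were 12 higher and 5 lower (median 0.11) with median ratio scaling, 12 and 7 (median 0.12) with quantile normalisation, and 12 and 8 (median 0.042) with library total scaling.

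**Figure D4:**
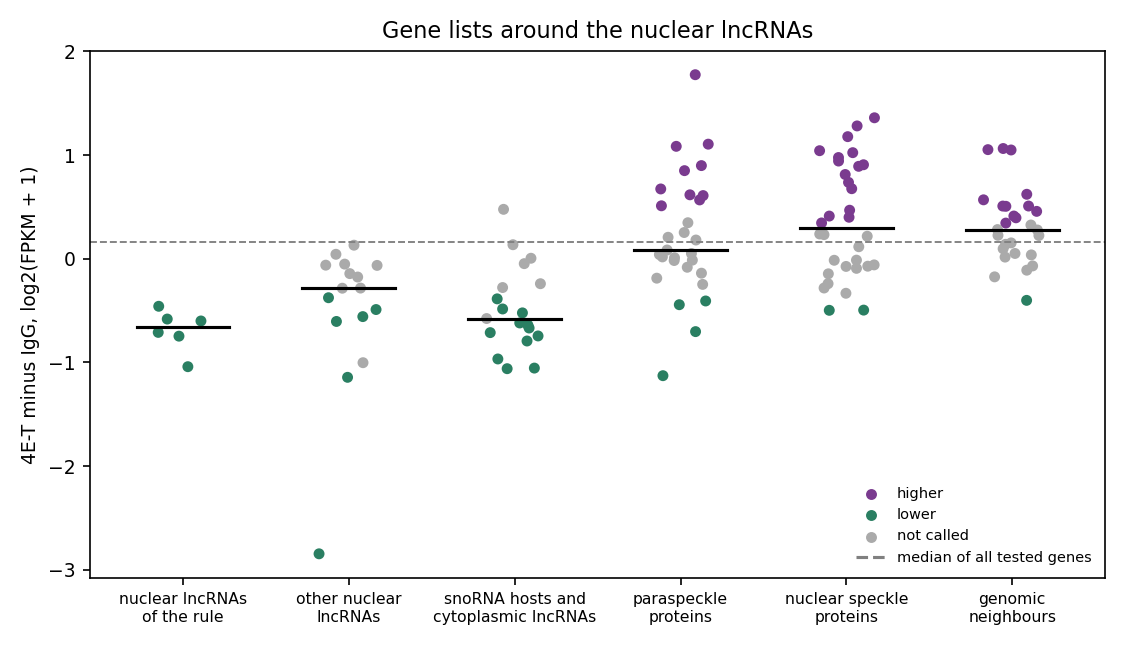
Log2 difference (4E-T minus IgG) of the tested genes of each list, with a black bar at the list's median and a dashed line at 0.16, the median of all tested genes. Colours show whether a gene was called higher, lower or not called. Every tested gene of the nuclear lncRNAs and of the other nuclear list lies below the dashed line, while the lists of proteins and neighbours lie on both sides of it.

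The 40 genes listed as neighbours of the lncRNA loci, or lying inside them, include some as far off as Mkrn3, 1967415 bp from Snhg14. Of the 40, 27 were tested, with 12 higher and 1 lower and a median of 0.28. With median ratio scaling 8 were higher and 1 lower (median 0.12), with quantile normalisation 9 and 2 (median 0.12), and with library total scaling 5 and 3 (median 0.078). The higher calls became 7 without IgG library 1 and 5 without IgG library 2. Tfip11 near Miat (1.06 ± 0.15, SE) and Smtn near Tug1 (1.05 ± 0.14) were among the highest. The lower one was Cdkn1c, an imprinted cell cycle inhibitor near Kcnq1ot1 (-0.40 ± 0.15), whose call was lost without 4E-T library 1 (limma adjusted p = 0.172) and without IgG library 2 (0.385).

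Morc2a begins 374 bp from the start of Tug1, on the other side of it. It had FPKM of 50.3 and 45.7 with 4E-T, against 23.5 and 21.8 with IgG, a difference of 1.05 ± 0.14 (SE; limma adjusted p = 8.95e-07). The ratio of Tug1 to Morc2a was 0.337 and 0.441 in the 4E-T libraries and 1.17 and 1.32 in the IgG libraries. The lncRNA was thus the more abundant per length with IgG and the less abundant with 4E-T.

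Sox2, the neural stem cell transcription factor gene, lies within the span of Sox2ot. Sox2 had FPKM of 167 and 160 with 4E-T, against 103 and 110 with IgG (log2 difference 0.62 ± 0.16, SE; limma adjusted p = 0.00164). Without IgG library 1 its adjusted p was 0.0703. Sox2ot to Sox2 was 0.0512 and 0.0648 with 4E-T and 0.215 and 0.173 with IgG, ranges that do not overlap. The library kit does not mark strand, so reads where the exons of overlapping genes meet cannot be assigned by strand.

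Pvt1 to Myc, the proto-oncogene 47624 bp upstream, was 0.134 and 0.1702 with 4E-T and 0.320 and 0.297 with IgG. Myc itself had a difference of 0.39 ± 0.16 (SE; limma adjusted p = 0.0400), which was not called with median ratio scaling (adjusted p = 0.233), quantile normalisation (0.180) or library total scaling (0.384). It was also not called without 4E-T library 1 (0.388), IgG library 1 (0.209) or IgG library 2 (0.229). Nedd1, 519566 bp from the Rmst locus, was not called (0.33 ± 0.14, SE, limma adjusted p = 0.0511).

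Snrpn and Ube3a overlap the span of Snhg14. Snrpn, a splicing protein gene that shares its start with Snhg14 in RefSeq, had a difference of 0.28 ± 0.15 (SE; limma adjusted p = 0.125), and Ube3a of 0.037 ± 0.14 (0.849), which turned to -0.14 with median ratio scaling, -0.17 with quantile normalisation and -0.21 with library total scaling. Snhg14 to Ube3a was 0.0372 and 0.0787 with 4E-T and 0.0914 and 0.107 with IgG. Kcnq1 and Snurf, which overlap Kcnq1ot1 and Snhg14, were not analysed here.

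**Figure D5:**
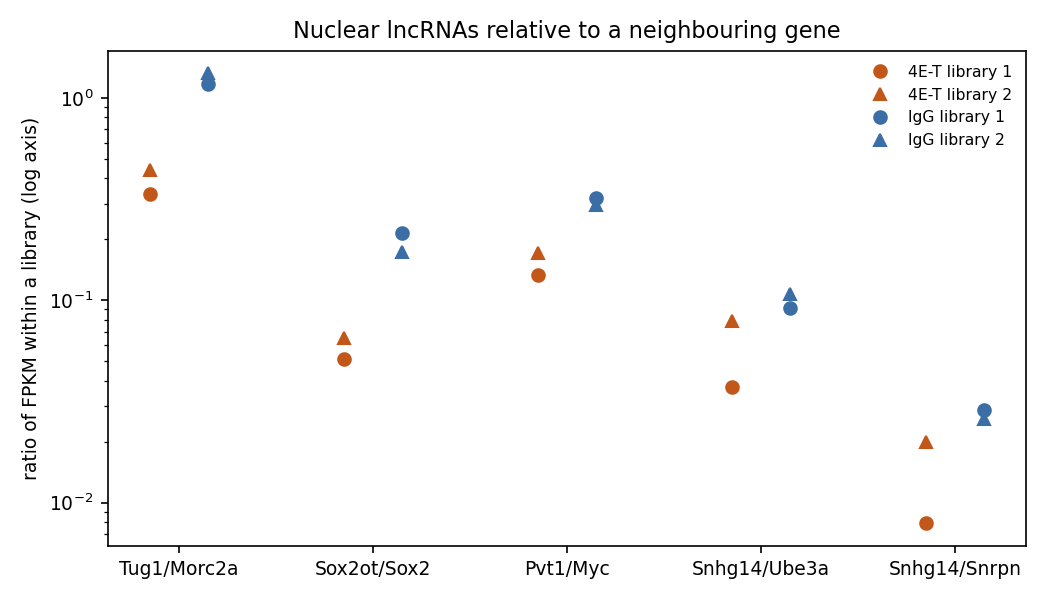
Ratio of FPKM within a library (log axis) of a nuclear lncRNA to a gene that overlaps or neighbours it, with 4E-T left of IgG, circles for library 1 and triangles for library 2. All 5 ratios were lower in both 4E-T libraries, with Tug1 to Morc2a at 0.337 and 0.441 with 4E-T and 1.17 and 1.32 with IgG. Each lncRNA was already lower in both 4E-T libraries, and each gene paired with it had a difference above 0. The shared direction was therefore largely set beforehand and is no added support. The 5 pairs were chosen, and no share over other gene pairs was computed.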

How the data were processed

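Each antibody had 2 libraries. Per the labels' protocols, the Magna RIP kit was used for the pull-down, SMART-Seq v4 for cDNA and Nextera XT for the libraries. The authors used DESeq2 1.26.0 and DESeq, per the submitters' processing notes. Those notes also name HTSeq 0.6.1p2 and STAR 2.6.0c, the trimmer Trim Galore 0.5.0, FastQC 0.11.5 and mm10, without settings. Per the file headers, the authors deposited an FPKM for each gene in each library. The deposited baseMean, a signal, averages the normalised reads of the 4 libraries. The authors' deposited comparison holds log2 fold changes with standard errors, a test score, p-values and a linear fold ratio.

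FPKM and baseMean together gave whole reads for 100% of 86952 values (tolerance 0.01 read), and exon lengths from them matched 10 mitochondrial genes within 0.0874%. The FPKM are scaled by size factors. On log2(FPKM + 1), limma 3.58.1 in R 4.3.3 used its trend and robust options over 12585 genes that reached FPKM 1 in 2 or more libraries, and 9153 genes were not tested. Adjustment was by Benjamini-Hochberg and calls needed an adjusted p under 0.05. Only 2 residual degrees of freedom belong to a gene, against 27 prior ones shared by all genes. The scripts were tested on simulated data.

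The lncRNAs and the gene lists were chosen with earlier results of these data known. All lncRNAs of the rule are named; from each list up to 3 called genes per direction, fixed neighbours, and the 3 genes most like Malat1. A gene that this rule names is not reported here. The RefSeq classes, the length class and the receptor genes were added after seeing the data, as were library total scaling, subtraction of the receptor level, the pseudocount of 0.1 with no filter, and voom. Alternatives were other scalings, filters, pseudocounts, variance options, the replicate block and leaving out each library.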

Additional observations from a re-analysis of the deposited data

How the results depend on the processing

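All 6 tested lncRNAs were lower with 4E-T under every alternative that tested them. Snhg14 alone lost its call, with no filter (-0.46, adjusted p = 0.0839) and with a pseudocount of 0.1 and no filter (-0.77, 0.0886). Leaving out 1 library gave Snhg14 differences from -0.74 to -0.18, and between 5 and 6 lower lncRNA calls. Neat1 and Snhg14 were not tested where all 4 libraries needed an FPKM of at least 1. For Kcnq1ot1 (-0.073 as reported, untested) a pseudocount of 0.1 and no filter gave -0.40 and voom -0.83, and for Miat (-0.19) -0.57 and -0.77; the smaller pseudocount by its construction shrinks low genes less. Calls over all genes were 2870 higher and 2969 lower with median ratio scaling, 2369 and 3355 with library total scaling, and 3024 and 3736 lower with a pseudocount of 0.1 and no filter and with voom, where more genes were tested (4646 higher with voom). Leaving out 1 library gave 2389 to 4259 higher and 1101 to 1755 lower calls, fewer samples in each. Over the lists 38 were higher and 26 lower, 25 and 41 with library total scaling, and 24 to 41 and 16 to 32 without 1 library. With a replicate block on the experiment number there were 4745 higher and 2099 lower calls and 6 lower lncRNAs. Same-numbered libraries correlated at 0.064 in their deviations over genes, which cannot show whether they were paired. The titles do not say whether same-numbered libraries share cultures, and the main fit used no pairing. Where an antibody was left with 1 library, it was assumed to vary like the other. Depth limited only the low lncRNAs, with counting error up to 8.80% in Miat.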
